A study of Rattus norvegicus with 20 samples.

Results

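Prostaglandin synthesis and reception were followed through 9 listed genes in stretched and unstretched rat alveolar epithelial monolayers. The genes were Pla2g4a, Ptgs1, Ptgs2, Ptges, Ptges2, Ptges3, Ptgis, Hpgd and Ptger4, taken by symbol from the table of raw counts, where all 9 were found among 17337 gene symbols. Type II pneumocytes of Sprague-Dawley rats had been cultured for 4 days on silastic membranes coated with fibronectin, on which they take on features of type I cells. The 20 libraries formed 4 groups of 5, and each library held the RNA of 4 technical replicate monolayers of 1 animal. Unstretched controls (NS) were kept in 0.01% DMSO for 24 h. Stretched cells (S) were kept in 0.01% DMSO for 18 h before a 6 h period of cyclic stretch in both axes, 15 times per min, with a surface area change of 25%. GSK2606414, an inhibitor of the kinase PERK, was given at 1 µM to unstretched cells (NS_PI) for 24 h, or for 18 h of pretreatment in the series text, and to stretched cells (S_PI) for 18 h before the same 6 h of stretch. The vehicle content of the inhibitor groups was not recorded, and all 4 groups were primary cells of the same 5 animals, not a cell line. The libraries were made with a 3' end kit that yields 1 fragment per transcript, so CPM, the counts relative to each scaled library size, were compared between genes without division by length.

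Prostaglandins are lipid mediators made from arachidonic acid, a fatty acid held in membrane phospholipids. A phospholipase frees it, a cyclooxygenase turns it into the unstable intermediate prostaglandin H, and a terminal synthase turns that into prostaglandin E, prostacyclin or another prostanoid, which acts on receptors at the cell surface and is then inactivated by dehydrogenation. In lung the pathway is known for its part in inflammation, in vascular and airway tone and in the response to mechanical ventilation. Cytosolic phospholipase A (Pla2g4a) frees arachidonic acid. Ptgs1 and Ptgs2 encode the cyclooxygenases, the first usually described as constitutive and the second as inducible. Ptges encodes the inducible microsomal prostaglandin E synthase, Ptges2 a second membrane-associated form, and Ptges3 the cytosolic form, which is also the abundant Hsp90 co-chaperone p23. Ptgis makes prostacyclin, Hpgd is the dehydrogenase that starts inactivation, and Ptger4 encodes the EP4 receptor for prostaglandin E.

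Promoter sequences were at hand for 7 of the 9 members, all but Ptges2 and Ptgis, in a RefSeq table on the rat build GRCr8. The 250 bases before the start are shown for the inducible cyclooxygenase, for the inducible prostaglandin E synthase and for the constitutive cyclooxygenase, since results for these 3 genes are set side by side here. The windows are chr13:64713813-64714062 on the plus strand for Ptgs2, chr3:34586988-34587237 on the minus strand for Ptges and chr3:39981169-39981418 on the plus strand for Ptgs1. Each is written 5' to 3', and capitals mark every match to 1 of 10 motifs searched on both strands.
Ptgs2: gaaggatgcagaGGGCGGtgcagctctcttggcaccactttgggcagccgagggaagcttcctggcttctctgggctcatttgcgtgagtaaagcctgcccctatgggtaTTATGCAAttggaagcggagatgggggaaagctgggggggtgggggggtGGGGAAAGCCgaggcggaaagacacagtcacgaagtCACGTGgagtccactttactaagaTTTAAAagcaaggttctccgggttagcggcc
Ptges: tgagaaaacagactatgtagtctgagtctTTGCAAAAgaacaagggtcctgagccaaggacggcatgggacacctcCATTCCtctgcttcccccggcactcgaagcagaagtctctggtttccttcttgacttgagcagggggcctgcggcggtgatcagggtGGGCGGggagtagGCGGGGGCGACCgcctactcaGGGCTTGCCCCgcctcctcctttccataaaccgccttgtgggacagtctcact
Ptgs1: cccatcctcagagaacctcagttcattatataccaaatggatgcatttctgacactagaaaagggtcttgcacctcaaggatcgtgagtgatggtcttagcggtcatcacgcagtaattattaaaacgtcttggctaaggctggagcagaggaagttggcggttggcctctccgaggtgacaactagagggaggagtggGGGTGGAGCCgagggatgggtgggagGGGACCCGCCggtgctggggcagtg

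The motifs were CRE (TGACGTCA), E-box (CACGTG), C/EBP (TTGCNNAA), NF-kB (GGGNNNNNCC), AP-1 (TGANTCA), EGR (GCGNGGGCG), GC box (GGGCGG), the TATA box (TATAAA), the similar run TTTAAA, called TATA-like, and TEAD (GGAATG). In the Ptgs2 window the TATA-like run began 31 bases before the start, the E-box 55, the NF-kB match 91, the C/EBP match (opposite strand) 140 and the GC box 238. In the Ptges window there was a C/EBP match at 221, a TEAD match (opposite strand) at 174, a GC box at 87, an EGR match at 74 and NF-kB matches at 72, 53 and 52. The NF-kB match at 72 overlapped the EGR match, and those at 53 and 52 overlapped each other on opposite strands. The Ptgs1 window held only NF-kB matches, at 51 and 25. Of 33469 RefSeq promoter windows of the same length, 42.3% held the NF-kB pattern, 30.5% the GC box, 12.9% the TATA box, 12.3% the TATA-like run, 12.1% the TEAD pattern, 9.22% the C/EBP pattern, 6.34% AP-1, 5.59% the E-box, 4.29% EGR and 1.59% the CRE. A match describes these letters and is not evidence of binding. The starts of Ptgs2 and Pla2g4a lie 141.7 kb apart on chromosome 13, on opposite strands and pointing away from each other, with only the antisense gene Ptgs2os and a pseudogene annotated between them. In this annotation Ptgs2os lies wholly between these starts and so does not overlap Ptgs2. The strand setting of the counting is not given in the sources used here, so reads of the antisense gene could not be told apart from those of Ptgs2.

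Libraries held 999209 (S, animal 4) to 3131541 (S, animal 2) counts assigned to genes, and a count of 3, taken as the detection floor, equalled 1.07 to 3.04 CPM. The labelled type I-like state was checked by markers: the type I markers Pdpn and Ager averaged 1819 and 497.5 CPM, while Aqp5 was at 3.02 CPM. The animals differed, with Ager at 479.1, 1041 and 671.6 CPM in animals 1 to 3 and 130.8 and 164.7 in animals 4 and 5. Summed over 16 type I markers, animals 1 to 5 held 6383, 8039, 6277, 2208 and 2556 CPM. Of the surfactant protein genes of type II cells, Sftpc averaged 11.9 CPM, Sftpb 7.30, Sftpa1 12.1 and Sftpd 39.9. Of the other type II markers, Lamp3 was at 122.6 CPM, Napsa at 190.3 and Lyz2, which macrophages also express, at 4899 CPM. Cebpa averaged 96.6 CPM and Etv5 46.9, while Lpcat1 was at 19.8 and Slc34a2 at 1.07 CPM. The airway marker Scgb1a1 averaged 1460 CPM, while Foxj1 was at 7.51, Scgb3a2 at 0.898, Cyp2f4 at 0.136 and Krt5 at 0.0231 CPM. Of the fibroblast and smooth muscle markers, Col1a1 averaged 5467 CPM, Vim 2333, Acta2 1057, Col3a1 551.0 and Des 65.5. The others of that list were low, with Dcn at 13.4 CPM, Pdgfrb 7.51, Pdgfra 3.88, Lum 2.99, Myh11 1.63, Col1a2 1.63 and Tcf21 0.322.

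Stretch was accompanied by higher counts of 5 of the 7 members that could be tested, and by lower counts of none. Without inhibitor Ptgs2, Ptges, Ptgis, Ptgs1 and Ptges3 rose (edgeR quasi-likelihood F test with animal as a block, Benjamini-Hochberg adjusted p below 0.05 over 8320 genes), by 1.33-fold for Ptges3 up to 5.41-fold for Ptgs2. Over all genes tested, 24.9% passed in this comparison, 12.5% higher and 12.4% lower. With inhibitor Ptgs2, Ptgis, Ptgs1 and Ptges3 rose, 4 of 7, where 30.5% of all genes passed, 15.2% higher and 15.3% lower. The median log2 fold change of the 7 tested members was 0.66 without and 0.49 with inhibitor, beside -0.01 and -0.02 over all genes. The members were chosen with earlier results of these data known, so these counts and medians are a description and not a test of the pathway. Without animal as a block, Ptgs2 alone passed in S vs NS, and Ptgs2 and Ptges3 in S_PI vs NS_PI. Hpgd and Ptger4 were below the filter on low counts. Ptgs2 entered the test only through its stretched libraries: 10 of 10 of these and 0 of 10 unstretched ones were above the filter's cutoff of 5.55 CPM. Since these are bulk samples, fewer cells of a type and less RNA per cell cannot be told apart.

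**Figure D1:**
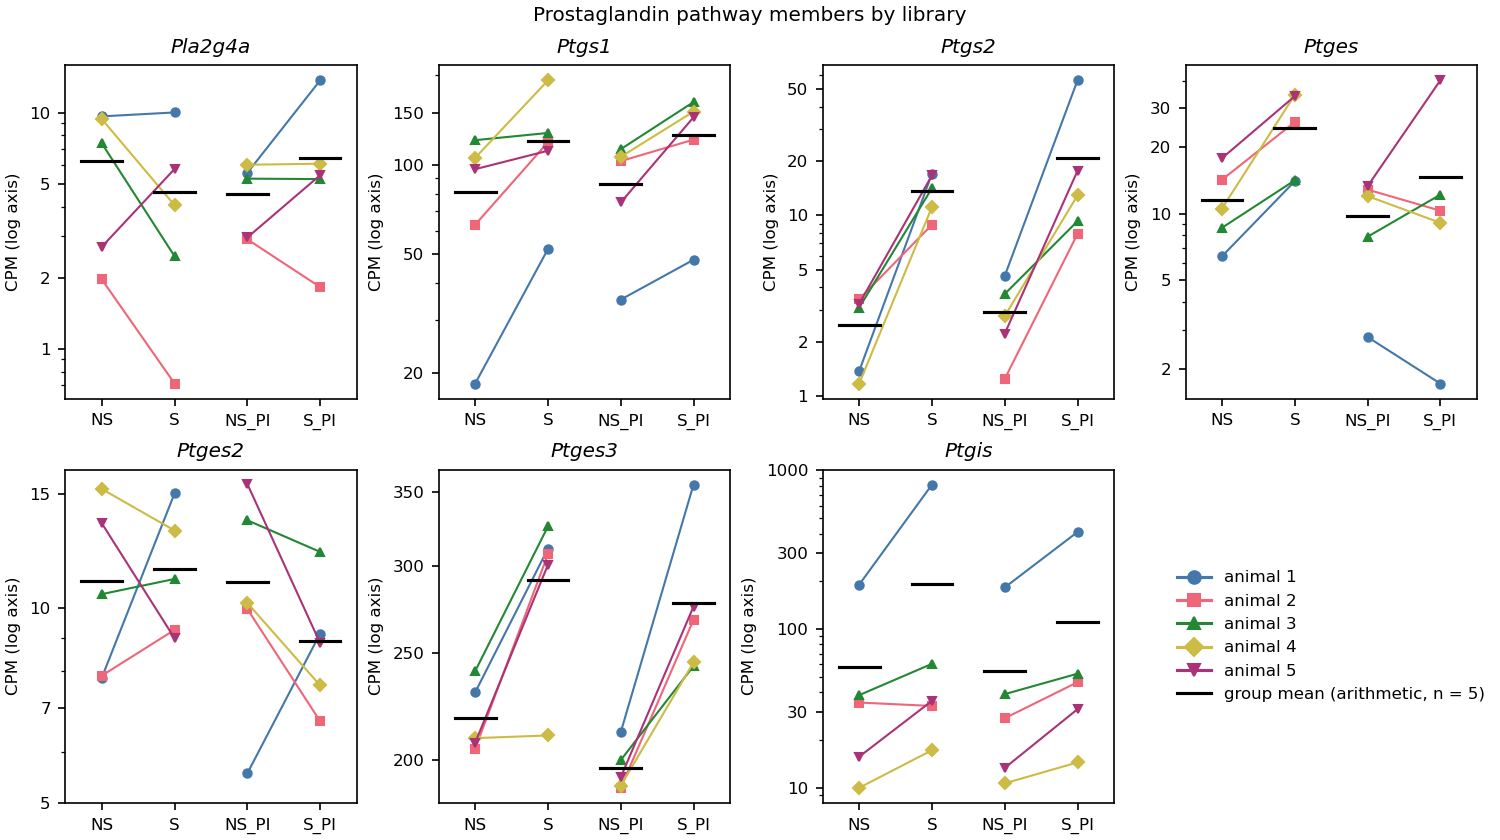
CPM (log axis, a separate scale per panel) of the 7 tested members in each library, by group. Each symbol is 1 animal, lines join the unstretched and stretched library of an animal within an inhibitor state, and black bars are arithmetic group means (n = 5). The lines of Ptgs2 rise in all 5 animals in both states, and the Ptgis values of animal 1 lie above those of the other 4 animals in every group.

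Release of arachidonic acid was represented by Pla2g4a, the lowest of the tested members, with 0.711 to 13.7 CPM over the 20 libraries. Its group means were 6.22 ± 3.66 CPM in NS and 4.60 ± 3.56 in S, and with inhibitor 4.54 ± 1.49 in NS_PI and 6.45 ± 4.37 in S_PI (SD, n = 5). The log2 fold change with stretch was -0.44 ± 0.36 (SE; adjusted p = 0.398 by edgeR) without inhibitor and 0.41 ± 0.36 (adjusted p = 0.417) with it, and the groups overlapped in both. Animal, not condition, took the larger part of its variation, 69.7% of the sum of squares of log2 CPM over the 20 libraries. Its neighbour on chromosome 13, Ptgs2, passed the test in both comparisons.

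Ptgs2, the inducible cyclooxygenase, was close to the detection floor in unstretched cells and above it in every stretched library. In NS its values in animals 1 to 5 were 1.38, 3.44, 3.09, 1.17 and 3.24 CPM, from counts of 2 to 7. In S they were 17.0, 8.89, 14.2, 11.1 and 16.7 CPM. Every stretched library was above every unstretched one, and each animal's own pair rose. In NS_PI the values were 4.63, 1.24, 3.67, 2.78 and 2.22 CPM and in S_PI 55.9, 7.90, 9.29, 12.9 and 17.6 CPM. Again no values overlapped, and the S_PI library of animal 1 was more than 3 times the next highest. The log2 fold change was 2.44 ± 0.43 (SE; adjusted p = 4.88e-04 by edgeR, 95% interval 1.54 to 3.33) without inhibitor and 2.65 ± 0.40 (adjusted p = 6.89e-05, 1.82 to 3.49) with it. Without animal 1 it was 2.16 and 2.19. Groups of 5 that did not overlap in CPM were found for 7.34% of all tested genes in S vs NS, and among the members for Ptgs2 only. In S_PI vs NS_PI they were found for 13.8% of genes, and among the members for Ptgs2 and Ptges3.

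Ptgs1, the constitutive cyclooxygenase, was the more abundant of the pair in all groups and rose by a smaller factor. Its values in animals 1 to 5 were 18.4, 62.9, 121.0, 105.6 and 96.7 CPM in NS, and 52.1, 119.2, 128.0, 192.4 and 111.5 CPM in S. The groups overlapped, but the value was higher after stretch in 5 of 5 animals. With inhibitor the values were 35.2, 102.9, 112.9, 106.4 and 74.7 CPM unstretched, and 47.9, 121.5, 162.6, 151.1 and 144.6 CPM stretched, again higher in 5 of 5 pairs. The log2 fold changes were 0.66 ± 0.17 (SE; adjusted p = 0.00779 by edgeR) and 0.52 ± 0.17 (adjusted p = 0.0225). Animal took 75.8% of the sum of squares of log2 CPM and stretch 15.1%, against 7.98% and 75.6% for Ptgs2. The call with inhibitor was lost without animal 3, 4 or 5 (adjusted p = 0.0534, 0.0604 and 0.115) and with scaling by library size only (0.0576).

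The share of Ptgs2 in the counts of both cyclooxygenases gave their balance within a library. Summed over 5 libraries it was 3.08% in NS (23 of 746 counts, 95% Wilson interval 2.06 to 4.58%) and 10.5% in S (119 of 1130, 8.87 to 12.5%). In NS_PI it was 3.23% (29 of 899, 2.26 to 4.59%) and in S_PI 14.8% (170 of 1146, 12.9 to 17.0%). Animal 1 gave 98 of the 170 Ptgs2 counts of S_PI, and without it the share there was 7.47% (72 of 964, 5.97 to 9.30%). Without animal 1 the shares of the other groups were 2.84% in NS, 8.57% in S and 2.34% in NS_PI. Single libraries ran from 1.10 to 6.98% in NS and from 5.47 to 24.6% in S, and from 1.20 to 11.6% in NS_PI and from 5.41 to 53.8% in S_PI, so single libraries overlapped between stretched and unstretched cells. Within animals, the log2 ratio of Ptgs2 to Ptgs1 was higher after stretch by 1.70 ± 0.74 (SD, 5 of 5 animals) and with inhibitor by 1.92 ± 0.85 (5 of 5). A two-sided exact paired permutation test gave p = 0.0625 for each, the smallest value that 5 pairs allow (adjusted p = 0.156 over 5 comparisons of this ratio), so this test could not reach 0.05. Ptgs1 was the larger part in 19 of 20 libraries, and the exception was S_PI of animal 1 at 53.8% (46.6 to 60.9%). Molecular identifiers are not named in the labels, so these intervals cover counting error only.

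**Figure D2:**
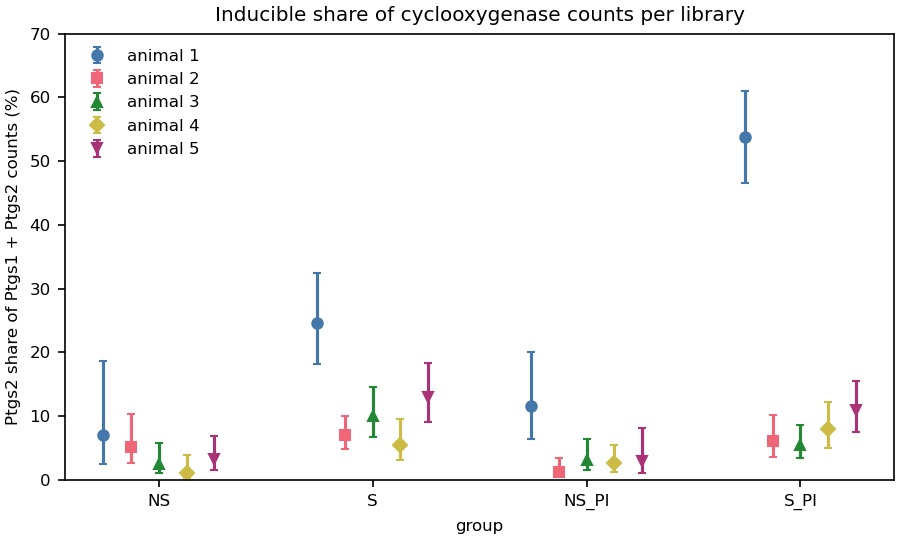
Share of Ptgs2 in the summed counts of Ptgs1 and Ptgs2 (%) for each library, by group, with symbols for the 5 animals and bars for the 95% Wilson interval of counting error. Animal 1 has the highest share in each group, from 6.98% in NS to 53.8% in S_PI, and each animal's stretched library lies above its unstretched one.

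Among the prostaglandin E synthases, the inducible Ptges rose with stretch in the absence of inhibitor. Its values in animals 1 to 5 were 6.43, 14.2, 8.65, 10.6 and 17.8 CPM in NS and 14.0, 26.0, 14.2, 34.4 and 34.0 CPM in S. All 5 pairs rose, although the groups overlapped. With inhibitor the unstretched values were 2.78, 12.9, 7.87, 12.0 and 13.3 CPM and the stretched ones 1.71, 10.3, 12.2, 9.11 and 40.0 CPM, so that animals 3 and 5 were higher after stretch and the other 3 lower. The log2 fold change was 1.08 ± 0.30 (SE; adjusted p = 0.0133 by edgeR) without inhibitor and 0.43 ± 0.33 (adjusted p = 0.335) with it. Without animal 4 the first gave an adjusted p of 0.0611, and without animal 5 the second was -0.067.

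Ptges3, the cytosolic synthase and co-chaperone, was the most abundant member. Its NS values were 230.4, 204.8, 240.9, 209.4 and 207.4 CPM in animals 1 to 5, and its S values 310.9, 307.3, 325.6, 210.6 and 300.6 CPM. The stretched libraries lay above all unstretched ones except that of animal 4, which was also the shallowest library. With inhibitor the values went from 212.0, 188.8, 200.0, 189.6 and 193.0 CPM to 355.3, 268.0, 243.4, 245.2 and 275.6 CPM, with no overlap. The log2 fold changes were 0.41 ± 0.12 (SE; adjusted p = 0.0175 by edgeR) and 0.49 ± 0.12 (adjusted p = 0.00459), with 5 of 5 animals higher in each. The first call was lost when counts were scaled by library size only (adjusted p = 0.0651), when only NS and S were fitted (0.102), without animal 2 (0.0776) and without animal 5 (0.0856). Reads that align to both Ptges3 and Ptges3l1, a gene that its name marks as a close relative, could have been left out as not unique. Ptges3l1 rose by 0.82 ± 0.20 without inhibitor.

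Ptges2, the other membrane-associated form, stood at 10.98 ± 3.34 CPM in NS and 11.5 ± 2.59 in S, and with inhibitor at 10.97 ± 3.84 in NS_PI and 8.88 ± 2.09 in S_PI (SD, n = 5). Its values ranged from 5.56 to 15.5 CPM over all 20 libraries and the groups overlapped. The log2 fold change with stretch was 0.11 ± 0.26 (SE; adjusted p = 0.800 by edgeR, 95% interval -0.44 to 0.65) without inhibitor and -0.26 ± 0.27 (adjusted p = 0.498, -0.83 to 0.31) with it. The intervals thus leave room for a change in either direction.

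Ptgis, the prostacyclin synthase, differed more between animals than any other member. Animal 1 held 190.5 and 813.2 CPM without inhibitor (NS, S) and 182.9 and 408.9 CPM with it (NS_PI, S_PI), while the other 4 animals held 9.97 to 38.3, 17.2 to 60.3, 10.6 to 38.8 and 14.4 to 52.3 CPM. Animal took 90.0% of the sum of squares of log2 CPM. In S the value was above that in NS in 4 of 5 animals, and in animal 2 it was 32.7 against 34.4 CPM. With inhibitor it was higher after stretch in 5 of 5. The log2 fold changes were 1.05 ± 0.23 (SE; adjusted p = 0.00297 by edgeR) and 0.81 ± 0.24 (adjusted p = 0.0127). Without animal 1 they were 0.58 ± 0.20 (adjusted p = 0.0413) and 0.68 ± 0.20 (adjusted p = 0.0133), and without animal 5 the second gave an adjusted p of 0.0669.

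**Figure D3:**
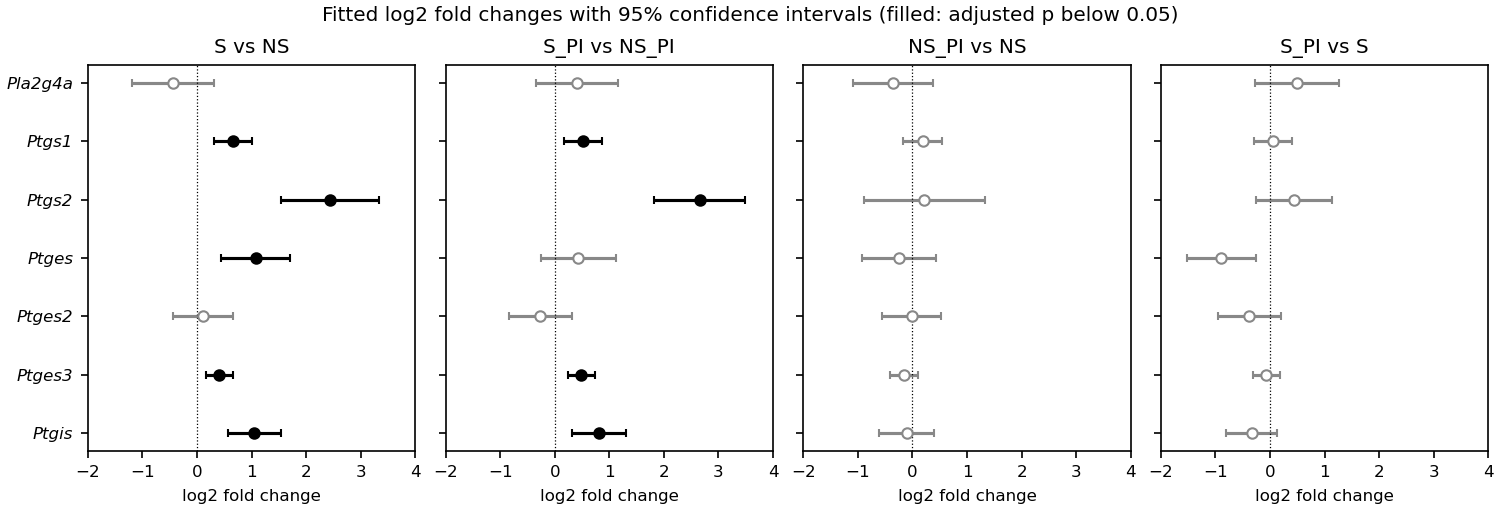
Fitted log2 fold changes of the 7 tested members (rows) in 4 comparisons (panels), with 95% confidence intervals and filled symbols where the adjusted p was below 0.05. Filled symbols are found in the 2 stretch comparisons only, 5 without and 4 with inhibitor, and Ptges in S_PI vs S has an interval from -1.53 to -0.26 but an adjusted p above 0.05.

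The members for inactivation and reception, Hpgd and Ptger4, were at the limit of the depth. Hpgd had 24 counts in all and was at 0 in 15 of 20 libraries. In animal 1 it reached 4.13 CPM in NS and 3.00 in S, and with inhibitor 3.24 in NS_PI and 0.570 in S_PI. Outside animal 1 the highest value was 0.641 CPM. Ptger4 had 1 count, in NS_PI of animal 2, and was at 0 in 19 libraries. Of the other cell surface receptors for prostanoids, Ptger2, Ptger3, Ptgdr and Ptgdr2 had 0 counts of 36299740, for which 3 counts would be 0.0827 CPM, and Ptger1 had 1 and Ptgir 7. The thromboxane receptor Tbxa2r had 0 counts in NS and 8 in S, then 1 in NS_PI and 7 in S_PI. For the prostaglandin F receptor Ptgfr the counts were 2 and 12, then 3 and 14. Fitted without the filter, Ptgfr had an adjusted p of 0.128 without and 0.0824 with inhibitor by edgeR, and Tbxa2r 0.0952 and 0.184. Reads at the 3' end that fall outside the annotated gene would not be counted, and 16.2 to 24.5% of records were outside annotated genes, so these counts do not show that the receptors were absent.

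The mean levels over the 20 libraries put the members in an order. Ptges3 averaged 246.0 CPM, Ptgis 103.7 and Ptgs1 103.4, Ptges 15.1, Ptges2 10.6, Ptgs2 9.92 and Pla2g4a 5.45 CPM. The place of Ptgis rested on animal 1. It was above Ptgs1 in 4 of 20 libraries, those of animal 1, and over the other 4 animals it averaged 29.9 CPM where Ptgs1 averaged 119.6 CPM. Without animal 1 the order was Ptges3, Ptgs1, Ptgis, Ptges, Ptges2, Ptgs2 and Pla2g4a. Read within libraries, Ptges3 was above Ptgs1 and Ptgs1 above Ptgis in 16 of 16 libraries of these animals, and Ptgs1 was above Ptges in 20 of 20. Lower in the order the neighbours crossed, with Ptgis above Ptges in 10 of 16 libraries, Ptges above Ptges2 in 11, Ptges2 above Ptgs2 in 11 and Ptgs2 above Pla2g4a in 10. By mean level Ptges3 ranked 803 among the 8320 tested genes. Because 3' end counting depends on how well each 3' end is primed and annotated, this order is a description.

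The inhibitor comparisons asked whether PERK inhibition changed the members, and none passed the test. In NS_PI vs NS, S_PI vs S and the interaction (S_PI - NS_PI less S - NS), 0% of all genes were higher, 0% lower and 0 of 7 members were called by edgeR. The count at an unadjusted p below 0.05 was 455, 340 and 345 genes, and DESeq2 called 5, 0 and 0 genes, no member among them. Non-overlapping groups made up 0.709% of genes in NS_PI vs NS and 0.228% in S_PI vs S, and included no member. Among the members only Ptges was below 0.05 before adjustment, in S_PI vs S, with a log2 fold change of -0.89 ± 0.30 (SE; adjusted p = 0.999 by edgeR). Its value was lower with inhibitor in 4 of 5 animals. Its interaction was -0.65 ± 0.45 (95% interval -1.58 to 0.29, adjusted p = 0.984), negative in 4 of 5 animals, so the difference between its stretch effects was not shown. The interaction of Ptgs2 was 0.22 ± 0.66, of Ptgs1 -0.14 ± 0.24, of Ptges3 0.08 ± 0.17, of Ptgis -0.24 ± 0.33, of Ptges2 -0.37 ± 0.38 and of Pla2g4a 0.85 ± 0.51. A p above the threshold does not show that the stretch effects were alike. For Ptges3 the unstretched value was lower with inhibitor in 5 of 5 animals, by a log2 fold change of -0.15 ± 0.12 (adjusted p = 0.956).

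The rest of the pathway was read from lists, without the 9 members. The lists too were chosen with earlier results of these data known, so their counts are a description. Its counts stand beside the 12.5% of all genes that were higher and 12.4% lower without inhibitor, and 15.2% and 15.3% with it. In the synthase list, 3 of 6 tested genes rose without inhibitor and 3 with it, and none fell, at a median log2 fold change of 0.65 and 0.60. Akr1b1, an aldo-keto reductase with prostaglandin F synthase activity, rose by 1.60 ± 0.24 (SE; adjusted p = 9.01e-05 by edgeR) and by 1.68 ± 0.23 (adjusted p = 2.97e-05). Its mean went from 214.7 ± 21.6 CPM in NS to 757.4 ± 608.7 in S and from 234.4 ± 7.45 in NS_PI to 822.6 ± 360.2 in S_PI (SD, n = 5). These stretched means were above that of any member, and stretched and unstretched libraries did not overlap. Animal 1 rose most, by 2.96 on the log2 scale without inhibitor against 0.88 to 1.46 in the others. With inhibitor it rose by 2.62 against 1.10 to 1.74. The thromboxane synthase Tbxas1, also known from macrophages, rose by 0.68 ± 0.17 and 0.73 ± 0.17. Ptges3l1 passed without inhibitor (adjusted p = 0.0846 with it), and Akr1b8 rose by 1.43 ± 0.23 with inhibitor (adjusted p = 0.0661 without it), while their interactions did not pass the test. Akr1b1 and Akr1b8 are related aldo-keto reductases, and reads that align to both could have been left out as not unique.

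Of 7 tested genes for arachidonate release and reacylation, 1 rose without inhibitor (the lysosomal phospholipase Pla2g15, 0.58 ± 0.16) and 1 with it (Acsl4, which activates arachidonic acid for return to phospholipids, 0.63 ± 0.13), which is near the share over all genes. The secreted phospholipase Pla2g2a was below the filter with 125 counts, of which animal 1 held 36 of 40 in S and 50 of 56 in S_PI. Fitted without the filter it had a log2 fold change of 1.20 ± 0.65 (SE; adjusted p = 0.238 by edgeR) without and 1.80 ± 0.61 (adjusted p = 0.0305) with inhibitor. Without animal 1 these were -0.28 ± 1.20 (adjusted p = 0.965) and 0.49 ± 1.09 (adjusted p = 0.861). Of 5 tested genes for transport and inactivation, 0 passed without inhibitor and 1 fell with it (Cbr4, -0.70 ± 0.25). Of 2 tested genes in the receptor list, the nuclear receptor Pparg and Ptgfrn, a negative regulator of the prostaglandin F receptor, 0 passed in either comparison. In the lipoxygenase branch, which makes leukotrienes from the same fatty acid, 1 of 7 tested genes rose without inhibitor (Mgst2, 0.40 ± 0.14) and 2 with it (Alox5ap, 0.88 ± 0.23, and Lta4h, 0.68 ± 0.13). None of the genes of these lists, nor of those that follow, was called in an inhibitor comparison or the interaction.

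Transcription and mRNA-binding factors known to act on Ptgs2 included 17 tested genes, of which 6 rose and 1 fell in each stretch comparison. Over all genes 12.5% were higher and 12.4% lower without inhibitor, and 15.2% and 15.3% with it. Fosl1, an AP-1 subunit, rose by 2.44 ± 0.30 (SE; adjusted p = 1.79e-05 by edgeR) without and 3.77 ± 0.37 (adjusted p = 5.26e-07) with inhibitor, and Fos by 1.13 ± 0.28 and 1.59 ± 0.29. Cebpd, a C/EBP factor, fell by 2.13 and by 2.20 on the log2 scale, from 59.7 CPM in NS to 13.4 in S and from 55.3 in NS_PI to 12.0 in S_PI. Nfkb1 (0.67 ± 0.17 and 0.71 ± 0.17) and the osmotic stress factor Nfat5 (0.92 ± 0.17 and 1.01 ± 0.17) rose in both. Cebpb and Zfp36, which encodes an mRNA-decay factor, passed without inhibitor, and Creb1 and Nfatc1 with it. In a list of cAMP signalling, the pathway that EP2 and EP4 receptors feed, 2 of 11 tested genes rose without and 3 with inhibitor, and none fell, beside the 12.5% and 15.2% of all genes that were higher. These were the orphan nuclear receptors Nr4a2 (1.81 ± 0.21 and 2.35 ± 0.22), Nr4a3 (1.79 ± 0.38 and 2.56 ± 0.45) and, with inhibitor, Nr4a1 (1.55 ± 0.35), which many other signals also induce. By mean level Nr4a3 (2.89 CPM in NS, 1.34 in NS_PI) and Fos (5.15 and 3.95) were below the filter's cutoff of 5.55 CPM in unstretched cells. In stretched cells both were above it, Nr4a3 at 9.65 CPM in S and 7.70 in S_PI, and Fos at 11.7 and 12.4. With inhibitor, the unstretched means of Fosl1 (2.03 CPM) and Nr4a1 (3.75 CPM) were also below this cutoff. Their stretched means with inhibitor were 28.4 and 12.3 CPM. Without inhibitor their unstretched means, 6.30 and 6.07 CPM, were above the cutoff. Creb1 was below the cutoff by mean level in every group. With inhibitor, where it passed, its mean was 2.02 CPM unstretched and 4.53 CPM stretched.

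Genes with the most similar pattern were looked up for each member called in S vs NS, by Pearson's r of log2 CPM over the 20 libraries after each animal's mean was subtracted. For Ptgs2 they were Zfp46 (r = 0.95), Mmp3 (0.94) and Fem1b (0.94). For Ptgs1 they were Suv39h1 (0.92), Htra3 (0.90) and Ppp1r18 (0.90), for Ptges3 Dbr1 (0.96), Trmt10c (0.95) and Ube2d2 (0.95), and for Ptgis Pabpn1 (0.96), Npap60 (0.95) and Psmd1 (0.95). For Ptges the values were lower, with Mtpap (0.84) and Inip (0.79). By the same measure Ptgs2 and Ptges3 had r = 0.84, Ptgs2 and Ptgis 0.79, Ptgs2 and Ptgs1 0.78, and Ptgs2 and Ptges 0.25. All values share the same libraries and the same stretch contrast and are given as descriptions.

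Markers of other cell types were read beside Ptgs1 and Ptgis, which are also known from leukocytes, platelets, fibroblasts, mesothelium and endothelium. The summed level of 15 leukocyte markers ran from 1037 to 3225 CPM in NS and 1634 to 4187 in S, and with inhibitor from 1076 to 2827 in NS_PI and 1804 to 3802 in S_PI. Of its 12 tested genes, 5 rose without and 7 with inhibitor, and none fell. The shares over all genes were 12.5% higher and 12.4% lower without inhibitor, and 15.2% and 15.3% with it. Marco, a marker of alveolar macrophages, had 1 count in all, while Ptprc, the common leukocyte antigen, averaged 99.6 CPM. The animals stood in the same order by Ptgs1 and by this sum, with means of 38.4 and 1388 CPM in animal 1, 101.6 and 2508 in animal 2, 106.9 and 2513 in animal 5, 131.2 and 3271 in animal 3, and 138.9 and 3478 in animal 4. Of the platelet markers, Ppbp was at 0 and Pf4 averaged 182.8 CPM. In animals 1 to 5 Pf4 was at 77.0, 126.3, 169.8, 257.9 and 282.8 CPM, an order other than that of Ptgs1. Within animals the leukocyte sum was higher after stretch by 0.47 ± 0.13 on the log2 scale (SD, 5 of 5 animals) without and 0.50 ± 0.21 (5 of 5) with inhibitor. Ptgs1 relative to the sum differed by 0.24 ± 0.50 (higher in 3 of 5) and 0.04 ± 0.23 (3 of 5). Within animals Tbxas1 was higher after stretch by 0.75 ± 0.48 (5 of 5) and 0.78 ± 0.44 (5 of 5), and relative to the leukocyte sum by 0.28 ± 0.39 (3 of 5) and 0.28 ± 0.25 (4 of 5). For Alox5ap, which leukocytes also express, the values without inhibitor were 0.29 ± 0.75 (3 of 5) and, relative to the sum, -0.18 ± 0.83 (3 of 5). With inhibitor they were 0.86 ± 0.26 (5 of 5) and, relative to the sum, 0.37 ± 0.42 (4 of 5). The part of leukocyte RNA in the results for these 3 genes was not tested further. Ptgs2 is also known from leukocytes, but it was not read relative to any marker sum. Which cell type its rise came from was therefore not tested.

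For Ptgis, the summed mesothelial markers Msln and Wt1 averaged 471.1 CPM in animal 1 and 135.6 to 252.9 CPM in the others. Within animals this sum differed with stretch by 0.55 ± 0.71 (SD, higher in 5 of 5 animals) without and 0.22 ± 0.35 (4 of 5) with inhibitor. Ptgis relative to it differed by 0.38 ± 0.45 (4 of 5) and 0.58 ± 0.52 (5 of 5). The fibroblast and smooth muscle sum of animal 1, 11536 CPM, lay within the 4889 to 12786 CPM of the other animals, in which Col1a1 was its largest part. Single genes of the list went both ways in animal 1. Vim stood higher there, at 4922 CPM against 1262 to 2017 in the others, and Des at 169.7 CPM against 35.4 to 47.8. Acta2 and Myh11 were also highest in animal 1. Lowest there were Pdgfrb (2.96 CPM against 3.64 to 18.6), Pdgfra (0.842 against 1.84 to 7.82) and Lum (0.536 against 1.56 to 6.67). The remaining genes of the list lay within the range of the other animals. Within animals the sum differed with stretch by 0.53 ± 0.52 (SD, higher in 4 of 5) without and 0.57 ± 0.45 (5 of 5) with inhibitor, and in animal 1 it went from 7004 CPM in NS to 16006 in S. Ptgis relative to this sum differed by 0.40 ± 0.40 (higher in 4 of 5) and 0.24 ± 0.48 (2 of 5). Of the 8 tested genes of the list 1 rose without inhibitor, and with inhibitor 4 rose and 1 fell. Of 8 endothelial markers, 0 passed the filter, their sum was 0 to 4.56 CPM in any library, and Cdh5 and Cldn5 were at 0. Of 14 tested type I markers 1 rose and 5 fell without inhibitor, and 2 rose and 8 fell with it. Beside the counts of both lists, 12.5% of all genes were higher and 12.4% lower without inhibitor, and 15.2% and 15.3% with it. The part of mesothelial or fibroblast RNA in the Ptgis result was not tested further.

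**Figure D4:**
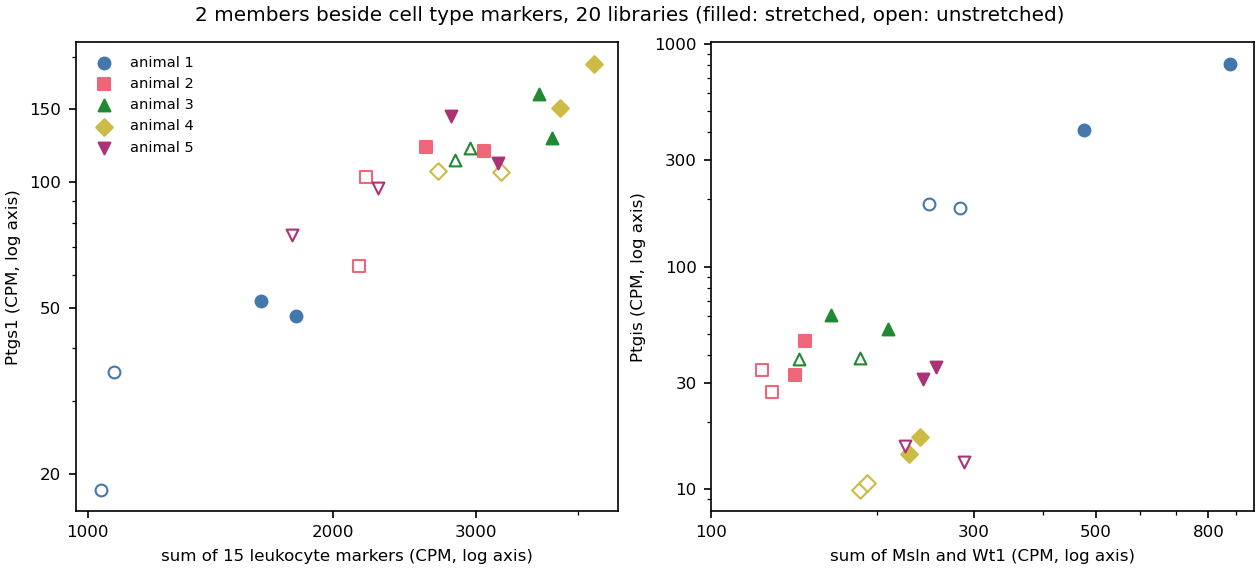
Left, Ptgs1 against the sum of 15 leukocyte markers, and right, Ptgis against the sum of the mesothelial markers Msln and Wt1, all in CPM on log axes, 1 symbol per library with the shape giving the animal, filled for stretched and open for unstretched cells. Animal 1 (means of 38.4 CPM for Ptgs1 and 398.9 CPM for Ptgis) lies at the low end on the left and at the top on the right.

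The authors' deposited table of a single comparison, adjusted for rat, does not name its groups. Across 8176 genes its log2 fold changes ran opposite to S vs NS from the counts (r = -0.99), so its negative values stand beside rises here. The authors' deposited table gave -1.75 ± 0.35 (SE; adjusted p = 4.46e-05) for Ptgs2, -0.94 (adjusted p = 0.00440) for Ptgis, -0.93 (0.0129) for Ptges and -0.64 (0.0355) for Ptgs1. For Ptges3 the authors' deposited table gave -0.41 with an adjusted p of 0.102, where the count fit above passed the threshold. Pla2g4a (0.30, adjusted p = 0.674) and Ptges2 (-0.10, adjusted p = 0.893) were above the threshold in the authors' deposited table, and it listed no adjusted p for Hpgd.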

How the data were processed

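Gene expression was measured by 3' end RNA sequencing in 20 libraries, 5 animals in each of 4 groups. The authors aligned reads to rn6 with STAR, counted them with HTSeq and used DESeq2, per the submitters' processing notes. In the sources used here their versions, the annotation and the strand setting are not given. Raw counts were deposited for 17337 gene symbols. The authors also deposited a table that, per the file headers, holds log2 fold changes with standard errors, a Wald statistic (a score), a mean of normalized counts and p-values with adjusted p-values.

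Counts per library ranged from 999209 to 3131541, and summary entries (16.2 to 24.5% of records outside genes, 35.5 to 57.7% not unique) were left out. Genes were filtered with filterByExpr (minimum count 10), which kept 8320, scaled by TMM and tested with edgeR 4.0.16 (quasi-likelihood F test, group and animal in 1 fit, 12 residual degrees of freedom) in R 4.3.3 with limma 3.58.1. A gene was called at an adjusted p (Benjamini-Hochberg) below 0.05. CPM are counts on TMM-scaled totals, shown as group mean ± SD. Values of log2 CPM used a prior count of 2, and the ratio of Ptgs2 to Ptgs1 added 0.5 to each count. DESeq2 1.42.0 was an alternative. Other alternatives were RLE, upper-quartile or library size scaling, no filter, no replicate block, only the groups compared, and leaving out each animal. The code was tested on simulated data of 8320 genes before use. Figures were drawn with matplotlib 3.10.9 in Python 3.11.15.

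The replicate number was taken as the animal. Deviations from the group means had a median r of 0.48 (lowest 0.32) between libraries with the same number and -0.17 between others, and 20 of 20 libraries correlated best with their own number. No 2 replicates agreed within sampling noise (lowest chi-square per degree of freedom 4.81).

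All 9 members were named. Other pathway genes were named where called in at least 1 comparison or where their counts describe a receptor or phospholipase, and for each member called in S vs NS the 3 genes with the highest r were named, of which 1 is not reported here. The members, lists and motifs were chosen with earlier results of these data known. The cyclooxygenase share, the values relative to marker sums and the distances between starts, and the share and Pla2g2a without animal 1, were added after seeing the data. Receptors and Pla2g2a below the filter were named after their counts were seen.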

Additional observations from a re-analysis of the deposited data

Results flagged for a closer look

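In 13 of 33 groups of 5 libraries in which a member varied, 1 library stood apart from the other 4 by the Dixon criterion (gap over range above 0.71), where chance gives about 1 in 20. In 5 of the 13 cases (Hpgd in all 4 groups and Ptger4 in NS_PI) at least 3 of the 5 libraries were at 0, so that this chance rate does not apply. The other 8 cases, 6 of them in libraries of animal 1, come from groups of the same 5 animals and are not independent. The 13 cases fell on 7 libraries.

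Ptgis of animal 1 stood apart in all 4 groups: 190.5 CPM in NS against 9.97 to 38.3 in the others, 813.2 in S against 17.2 to 60.3, 182.9 in NS_PI against 10.6 to 38.8, and 408.9 in S_PI against 14.4 to 52.3. Hpgd of animal 1 did so as well, with 4.13 CPM in NS and 3.00 in S, and with inhibitor 3.24 in NS_PI and 0.570 in S_PI, where the others were at 0 to 0.641 CPM, all from counts of 9 or fewer.

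In S_PI of animal 1, Ptgs2 was at 55.9 CPM against 7.90 to 17.6 in the others and Ptges3 at 355.3 CPM against 243.4 to 275.6. Ptges3 in S of animal 4, the shallowest library, was low at 210.6 CPM against 300.6 to 325.6. Ptges in S_PI of animal 5 was at 40.0 CPM against 1.71 to 12.2. Ptger4 in NS_PI of animal 2 was at 0.415 CPM, from a single count, against 0 in the others.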

How the results depend on the processing

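Ptgs2 was called in both stretch comparisons under all 12 alternatives (log2 fold change 2.16 to 2.77 without and 2.19 to 2.95 with inhibitor), and Ptges3 in S_PI vs NS_PI under all 12. Without the replicate block, 818 genes were called in S vs NS and 1229 in S_PI vs NS_PI. Ptgs2 was then the only member called in the first and Ptgs2 and Ptges3 in the second, and Ptges (adjusted p = 0.214), Ptges3 (0.0573), Ptgis (0.359) and Ptgs1 (0.434) lost the call in the first, Ptgis (0.587) and Ptgs1 (0.431) in the second. With only the groups compared in the fit, 1152 genes were called in S vs NS, 31 in NS_PI vs NS, and Ptges3 lost its call in S vs NS (adjusted p = 0.102). Counts without 1 animal ranged from 1421 to 1770 in S vs NS, 1844 to 2446 in S_PI vs NS_PI and 0 to 4 in NS_PI vs NS, where no filter gave 4 and DESeq2 5. With scaling by library size the median of all genes was -0.12 in both stretch comparisons (-0.01 and -0.02 with TMM), and there were 722 higher and 1425 lower in S vs NS and 957 and 1677 in S_PI vs NS_PI. With upper-quartile scaling these were 854 and 1233, and 1030 and 1612. With library size, Ptgs1 lost its call in S_PI vs NS_PI (adjusted p = 0.0576).

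Signs turned for values that had not passed the test: Ptges2 in S vs NS with library size (-0.0018) and in NS_PI vs NS with upper-quartile scaling (0.0096). Leaving out 1 animal at a time gave -0.067 (without animal 5) to 0.64 for Ptges in S_PI vs NS_PI, -0.14 (1) to 0.26 for Ptges2 in S vs NS, -0.11 to 0.16 (4; 0.06 without 1) for Ptges2 in NS_PI vs NS, -0.15 to 0.0072 (3) for Ptges3 in S_PI vs S, -0.032 (5; -0.026 without 3) to 0.15 for Ptgs1 in S_PI vs S, -0.14 (1) to 0.65 for Ptgs2 in NS_PI vs NS and -0.11 (1) to 0.64 in S_PI vs S. In the interaction it gave -0.52 to 0.10 (1) for Ptgis, -0.37 to 0.025 (1) for Ptgs1 and -0.11 (2) to 0.44 for Ptgs2. Pla2g2a, fitted without the filter, turned from 1.20 to -0.28 in S vs NS without animal 1, an alternative chosen after seeing the data. The causes were not tested. All 36 group levels moved by less than 1 SD with library size scaling. Depth limits Hpgd, Ptger4 and unstretched Ptgs2, which lie at or near 3 counts per library.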
